A study of Mus musculus with 4 samples.

Results

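To ask what CreERT2 expression does in XY germ cells that carry floxed Max alleles, DNA microarray signals were compared between sorted XY germ cells with CreERT2 (MC) and without it (M). The comparison covers all 30738 named genes, each represented by its transcript cluster of highest mean over the 4 arrays of the series, and uses 2 of those 4 arrays. Values are log2 signals, so a difference of 1 is 2-fold. Each condition has 1 array, so no difference has a replicate check, no test was possible, and precision is limited by the number of arrays.

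All samples came from E12.5 gonads of Max fl/fl embryos labelled C57/BL6, freed of mesonephros, from mothers given tamoxifen at E8.5, and germ cells were taken with magnetic beads through the surface antigen SSEA-1. MC embryos also carried 1 copy of the Oct4dPE-CreERT2 transgene, in which the distal enhancer of Oct4 drives the tamoxifen-dependent recombinase, whereas M embryos did not. M embryos thus have floxed alleles and tamoxifen but no recombinase. The XX counterparts without and with the transgene, F and FC, also 1 array each, are given beside the results of XY cells. The number of embryos behind each sample is not given in the sources used here. MAX is the obligate partner of MYC proteins at E-box sequences and also a subunit of the Polycomb complex PRC1.6, which keeps germline and meiotic genes silent in other cells. At the stage sampled here, XY germ cells lie among Sertoli cells in forming testis cords, and XX germ cells are about to enter meiosis.

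The labels were checked first. Max itself had a signal of 10.64 in M and 10.33 in MC, a log2 difference of -0.31, beside 10.75 in F and 10.31 in FC. The probes of its cluster were not examined by exon, so these values do not measure the deletion. Germ cell genes were bright in both XY arrays: Dazl, an RNA-binding protein of germ cells, had 15.25 in M and 15.56 in MC, and Pou5f1, which encodes OCT4, had 8.09 and 8.74. Xist, the RNA of the inactive X chromosome, was dim in both (4.55 in M and 4.60 in MC), and the Y-linked Uba1y was bright in both (12.82 and 13.26). The array labelled F departed from its label, with Uba1y at 9.69 and Xist at 7.80 against 5.52 and 10.81 in FC. Every value below that is set against F, or split by the difference between FC and F, rests on this array.

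Of the 30738 genes, 69 were at least 2-fold higher in MC (0.224% of all) and 146 at least 2-fold lower (0.475%). The median difference over all genes was 0.01. Genes of the small RNA classes made up 13 of the 69 and 73 of the 146, while protein-coding genes made up 49 and 55. Of all 30738 genes, 2882 were in a small RNA class and 19253 were protein-coding. Thus 0.451% of the small RNA genes were higher and 2.53% lower, against 0.255% and 0.286% of the protein-coding genes. The balance of the calls moved with the scaling: 98 were higher and 105 lower after quantile normalization, 90 and 107 after cyclic loess, and 57 and 233 when each array was centred on its median. The largest differences were those of Gabrp (3.96 in M, 7.04 in MC, difference 3.08), which encodes the pi subunit of the GABA A receptor, and Pf4 (10.93 in M, 7.49 in MC, difference -3.44), which encodes a chemokine of platelet granules.

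**Figure D1:**
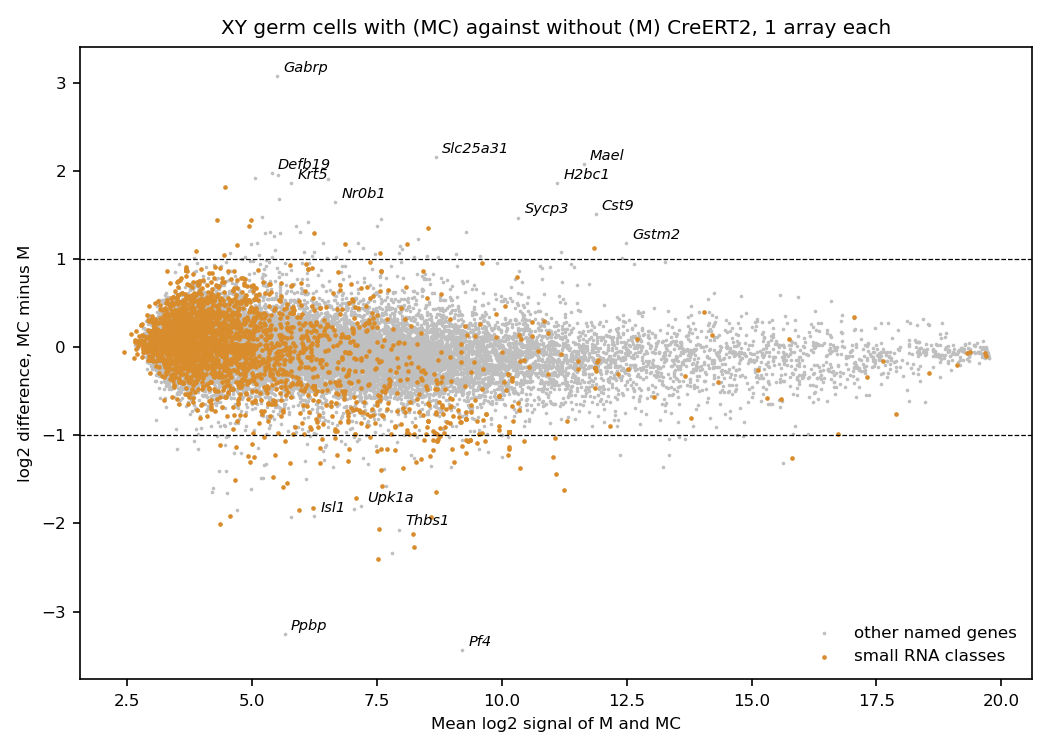
Each point is 1 named gene, with the mean log2 signal of M and MC on the x axis and the log2 difference MC minus M on the y axis, dashed lines mark 2-fold, and small RNA classes are orange. Pf4 and Ppbp lie lowest at -3.44 and -3.26, Gabrp lies highest at 3.08, and the orange points of signal above 6 lie mostly below 0. The classes differ in this: of 90 microRNA genes of signal 6 to 8, 59 lie above 0 and 31 below.

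The called genes were also ranked over the 4 arrays. The call itself places M above MC for lower genes and below MC for higher genes, so these ranks are partly fixed by it. Sex also separates the arrays, so the ranks do not settle which XY array departed. The same limits hold for the ranks of the lists below. Among the 146 genes lower in MC, M had the highest signal of all 4 arrays for 124, and it exceeded each of the other arrays by at least 1 for 53. MC had the lowest signal for 80 of the 146, and it was at least 1 below every other array for 7, among them the embryonic globin gene Hbb-y and Polr2f, a subunit shared by the nuclear RNA polymerases. Among the 69 genes higher in MC, M had the lowest signal for 48, MC had the highest for 38, and MC exceeded each other array by at least 1 for 19. Outside the small RNA classes, 27 of the 73 genes lower in MC had M at least 1 above every other array. The platelet list, chosen with earlier results of these data known, held 7 of these 27. A list of posterior endoderm and cloacal genes, written after the values were seen, held 6. The Sertoli and germline target lists below were chosen as the platelet list was, so the counts of all these lists are descriptions.

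The lowest differences of all named genes, -3.44 and -3.26, were those of the platelet genes Pf4 and Ppbp. Platelets bud from megakaryocytes, keep part of the RNA of those cells and circulate in the blood of the embryo. Of 36 platelet and megakaryocyte genes measured, 9 were at least 2-fold lower in MC and 0 higher (all genes 0.475% and 0.224%), 28 lay below 0, and the median difference was -0.38 against 0.01 for all genes. M had the highest signal of the 4 arrays for 26 of them. In bulk RNA such as this, fewer cells of a type and less RNA per cell cannot be told apart.

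Pf4 had signals of 10.93 in M, 7.49 in MC, 7.14 in F and 6.29 in FC, so that only M was high. Ppbp, which encodes the precursor of platelet chemokines, was likewise high in M, with 7.28 in M, 4.02 in MC, 3.96 in F and 4.50 in FC. Clec1b, the podoplanin receptor of platelets, had 7.96 in M, 6.12 in MC, 6.10 in F and 5.05 in FC. Treml1, a receptor of platelet granules, differed by -1.85, Alox12, the platelet lipoxygenase, by -1.61, and Itga2b, the platelet integrin alpha subunit, by -1.49. For these 6 genes M was at least 1 above each other array. Thbs1, which encodes the adhesive granule protein thrombospondin, did not share that pattern: it had 8.97 in M and 6.90 in MC, but 7.58 in F and 8.85 in FC. Itgb3, the partner of ITGA2B, had 7.65 in M, 6.61 in MC and 7.57 in FC, and its difference of -1.04 became -0.92 after quantile normalization and -0.94 after cyclic loess. Plek, which encodes pleckstrin, differed by -1.01.

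Further platelet genes lay just short of 2-fold: Gp9, a subunit of the receptor for von Willebrand factor, had 6.20 in M and 5.25 in MC, Tubb1, the platelet beta tubulin, had 5.32 and 4.38, and Myl9, a myosin light chain, had 7.43 and 6.50. The transcription factor genes of the lineage stayed close to the lowest signals of the arrays, Gata1 with 3.33 in M and 3.44 in MC and Nfe2 with 3.70 in both. Outside the list, Ctla2a and Ctla2b, which encode cathepsin inhibitors, had the same shape, 8.96 and 6.74 in M against 6.62 and 4.81 in MC, as had Fermt3, an integrin activator of blood cells, with 5.23 and 4.03. The summed linear signal of the 36 genes was 4420 in M and 1469 in MC, a sum in which Pf4 weighs most.

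Other blood and vessel genes had few calls (over all genes, 0.224% were at least 2-fold higher and 0.475% lower). None of the 32 macrophage genes reached 2-fold, 24 lay above 0 and 7 below with a median of 0.135, and MC had the highest signal of the 4 arrays for 16. Only 1 of the 32 had a mean signal of at least 6. Genes outside the small RNA classes also lay more often above 0 at low signal, with medians of 0.05 below 4 and 0.02 from 4 to 6. Csf1r, the receptor that defines the macrophage lineage, had 4.28 in M and 4.53 in MC. Of 23 erythroid genes, Hbb-y was lower (13.95 in M, 12.73 in MC, difference -1.22), and the median was 0.02, with Hbb-bh1 at 9.22 and 8.62. Of 24 endothelial genes, Plvap, a protein of vessel wall pores, was lower (6.64 and 5.54), and the median was -0.11. Cdh5 and Pecam1, which define endothelium, had differences of -0.23 and -0.11, the latter in a gene that germ cells also express.

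**Figure D2:**
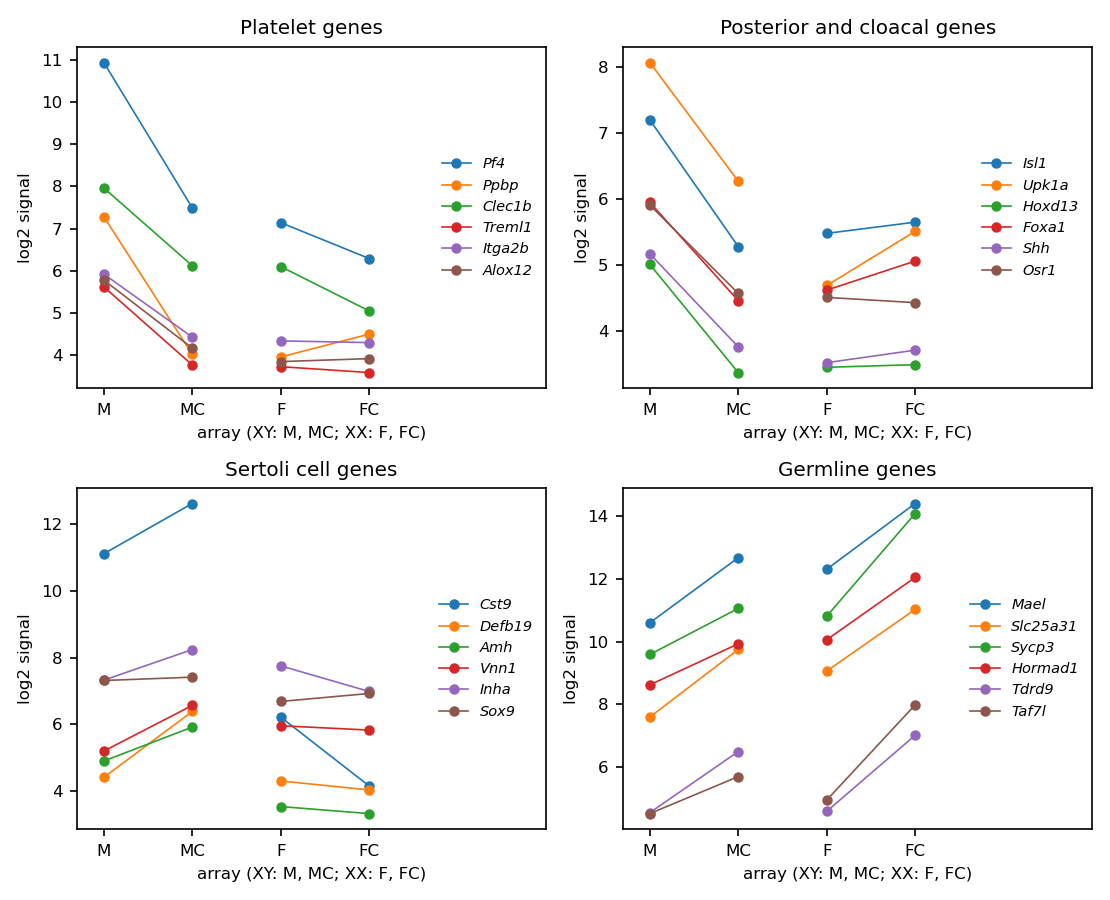
Log2 signals (y axis) of 6 genes from each of 4 groups in the 4 arrays (x axis), with a line joining the arrays without and with CreERT2 of each sex. The platelet genes and the posterior and cloacal genes are highest in M, Cst9 is high in both XY arrays with 12.63 in MC, and the germline genes are lowest in M.

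Most of the genes listed for posterior endoderm, cloaca and urogenital sinus were also highest in M. Embryonic gonads lie close to these tissues, from which bladder, urethra and hindgut arise. The list of 16 such genes was assembled after several of them had been seen among the lower genes, so its counts describe it and support nothing further. All 16 were lower in MC, 8 of them at least 2-fold (50%, against 0.475% of all genes), with a median of -1.075. M had the highest signal of the 4 arrays for 15, the exception being Cdx2. Isl1, a LIM homeodomain factor, had 7.20 in M, 5.28 in MC, 5.48 in F and 5.65 in FC. The posterior Hox gene Hoxd13 had 5.01 in M and between 3.37 and 3.49 in the other 3 arrays, and Hoxb13 had 4.08 in M and 2.92 in MC. Shh, a signal of endoderm to mesenchyme, had 5.17 in M and 3.76 in MC. Foxa1 and Foxa2, forkhead factors of endoderm, had 5.95 and 5.76 in M against 4.46 and 4.77 in MC. Osr1, a factor of intermediate and lateral mesoderm, had 5.91 and 4.57. Upk1a, a uroplakin of bladder epithelium, had 8.07 in M and 6.27 in MC, but 4.69 in F and 5.51 in FC, so that both XY arrays lay above both XX arrays. Krt19, a keratin of simple epithelia, had 8.46 and 6.89. The uroplakin genes Upk2 and Upk3a differed by -0.55 and -0.10 and Cdx2, a hindgut factor, by -0.24.

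Genes of the supporting cells of the testis lay on the other side. Sertoli cells enclose the germ cells in cords and secrete anti-Müllerian hormone. Of 34 Sertoli cell genes measured, 5 were at least 2-fold higher in MC and 0 lower (all genes 0.224% and 0.475%), 30 lay above 0, and the median difference was 0.24. Of the 34, only 9 had a mean signal of at least 6. At lower signals, genes outside the small RNA classes had medians of 0.05 (below 4) and 0.02 (from 4 to 6). MC had the highest signal of the 4 arrays for 25 of the 34 Sertoli genes. Part of that rank follows from the 30 genes above 0 and from the XX sex of F and FC. Cst9, a cystatin-related gene of fetal Sertoli cells, had 11.12 in M, 12.63 in MC, 6.21 in F and 4.14 in FC. The F value stood above that of FC, in the array that also carried Y-linked signal. Defb19, a beta-defensin of fetal testis, had 4.40 in M and 6.38 in MC, with 4.29 in F and 4.02 in FC, so that only MC was high. Amh, which encodes anti-Müllerian hormone, had 4.89 in M and 5.91 in MC, with 3.52 in F and 3.31 in FC. Its difference of 1.02 became 0.99 after cyclic loess and 0.97 after median centring. Vnn1, a pantetheinase, had 5.19 and 6.56. Nr0b1, a nuclear receptor that also belongs to the pluripotency network, had 5.83 in M and 7.48 in MC, but 7.47 in F and 8.02 in FC, so that M was the low array.

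The factors that specify the Sertoli fate differed little. Sox9 had 7.31 in M and 7.41 in MC, Sox8 had 5.02 and 5.13, and Dhh, a signal from Sertoli cells to the interstitium, had 4.32 and 4.21. Between these and the 5 called genes lay Inha, the inhibin alpha subunit (difference 0.92), Mro (0.73), the prostaglandin D synthase gene Ptgds (0.69) and Hsd17b3, an enzyme of testosterone synthesis (0.52). Of 14 genes of steroid synthesis, Cyp11b1, an 11-beta-hydroxylase, was at least 2-fold higher (5.30 in M, 6.61 in MC), and the median was 0.29. That gene is 7.14% of the list, against 0.224% of all genes. Cyp11a1, the side-chain cleavage enzyme, had 5.66 and 6.61 and Hsd3b1 had 5.13 and 5.93, whereas Star, the cholesterol transfer protein, had 4.62 and 4.84. M was the lowest of the 4 arrays for 9 of these 14 genes. The 21 interstitial genes had a median of 0.20, with Pdgfrb (7.16 in M, 8.0 in MC) and Dcn (7.16 and 7.96) highest by difference and none at 2-fold. None of 19 pregranulosa genes reached 2-fold, with a median of 0.08, and Foxl2, which defines them, had 2.98 and 3.04. The part of these cell types in the differences of other genes was not tested.

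**Figure D3:**
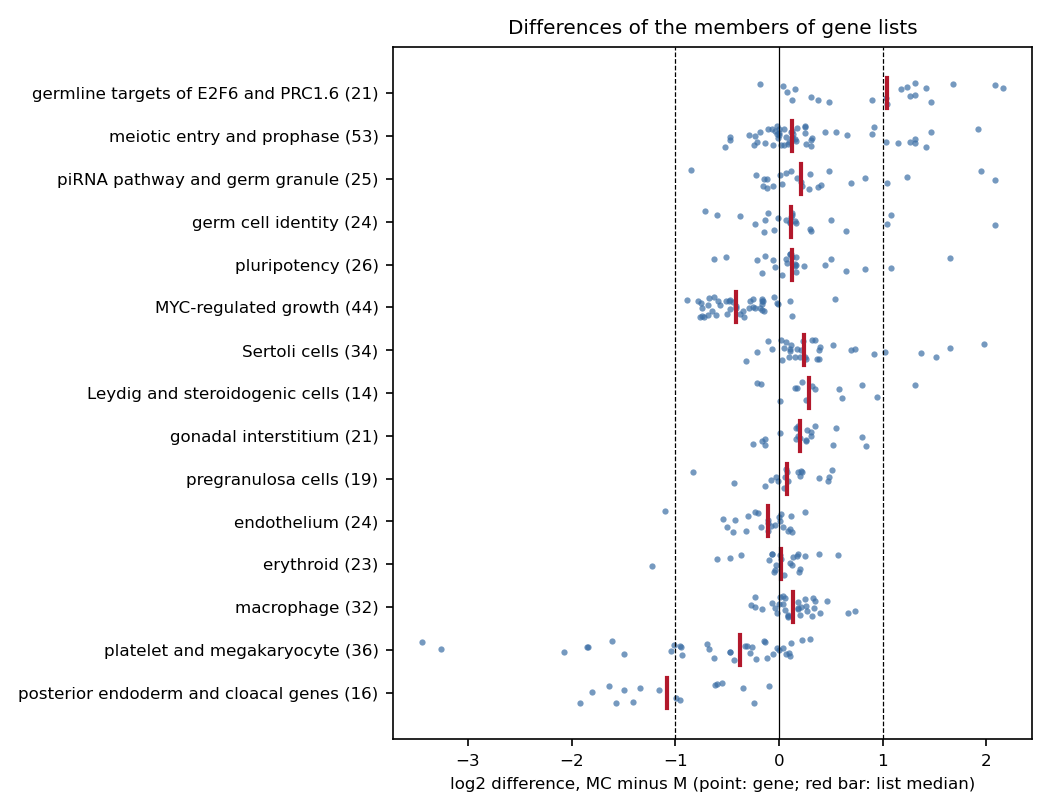
Log2 differences MC minus M (x axis) of the members of 15 gene lists (rows, with the number of genes measured), a point per gene and a red bar at the median. The germline targets have a median of 1.04, Sertoli genes of 0.24, platelet genes of -0.38 and the posterior list, written after the values were seen, of -1.075.

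Several gene families contributed more than 1 member. The family of 7 mu class glutathione S-transferases, which conjugate glutathione to electrophiles, was listed after its higher members had been seen, so its count is only a description. Of them, 3 were at least 2-fold higher in MC (42.9%, against 0.224% of all genes). These were Gstm2 (11.89 in M, 13.07 in MC), Gstm7 (7.99 and 9.02) and Gstm4 (6.0 and 7.01), with Gstm1 at 9.43 and 10.38. Gstm3 differed by -0.08. The sequences of these genes are alike, and whether probes of 1 read RNA of another was not tested. MC was the highest of the 4 arrays for 5 of the 7. On chromosome 2 the cystatin gene Cstdc1 (4.91 and 6.01) and the protease inhibitor genes Wfdc8 (4.61 and 5.90) and Wfdc10 (4.90 and 6.20, with 6.48 in FC) were higher beside Cst9 and Defb19. These families did not move as a whole. Of 22 defensin and WFDC genes, 3 were higher (13.6%, against 0.224% of all genes) and 8 lay below 0. Their median of 0.05 became 0 after median centring. Of 14 cystatin genes, listed after the values were seen, 2 were higher (14.3%), with a median of 0.13. Of 24 keratin and skin genes, the partners Krt5 (4.85 in M, 6.71 in MC) and Krt14 (4.39 and 5.56) of basal epidermis were higher, whereas Trp63, a factor of the same cells, had 4.61 and 3.99. The 2 higher genes are 8.33% of that list, against 0.224% of all genes. Gabrp had 3.75 in F and 3.55 in FC, so that it was high in MC alone, and none of the other 15 GABA A receptor subunit genes measured differed by more than 0.37.

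Germline genes made up another group among the higher genes. PRC1.6 and its DNA-binding subunit E2F6 silence a set of these genes, and meiotic entry calls on many of them. Among 21 genes listed as targets of E2F6 and PRC1.6, MC was at least 2-fold above M for 12 and below it for 0 (all genes 0.224% and 0.475%), with a median difference of 1.04, and 11 of the 12 were also at least 2-fold higher in FC than in F. Over all 30738 genes, 168 were at least 2-fold higher in FC than in F and 156 lower. M had the lowest signal of the 4 arrays for 19 of the 21 listed targets, while MC lay above F for 11. Slc25a31, the ADP/ATP carrier of germ cells, had 7.59 in M, 9.75 in MC, 9.06 in F and 11.03 in FC. Mael, a piRNA pathway component, had 10.60 in M, 12.68 in MC, 12.31 in F and 14.41 in FC. For both, the MC signal was close to that of F and well below that of FC.

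Of the synaptonemal complex genes, Sycp3 had 9.59 in M and 11.06 in MC, against 10.81 in F and 14.09 in FC, and Sycp1 had 5.41 and 6.83, whereas Sycp2 differed by 0.44, Syce1 by 0.25, Syce2 by -0.02, Syce3 by -0.06 and Tex12 by 0.00. Hormad1, which marks unsynapsed chromosome axes, had 8.62 and 9.93. Tdrd9, a helicase of the piRNA pathway, had 4.54 in M and 6.49 in MC, with 4.58 in F and 7.01 in FC. Bhmg1, which encodes the meiotic initiator MEIOSIN, had 4.80 and 6.06, Taf7l, a germ cell TFIID subunit, had 4.51 and 5.69, and Ccnb3, an M-phase cyclin of meiosis, had 4.09 and 6.01. Ddx4, a germ cell helicase, had 9.04 and 10.08. The testis histone gene H2bc1 had 10.17 and 12.03. Of the 53 genes of meiotic entry and prophase, 8 were at least 2-fold higher and 0 lower (all genes 0.224% and 0.475%), and the median was only 0.13. Stra8, the gene induced by retinoic acid at meiotic entry, had 4.65 in M and 5.31 in MC, with 7.28 in F and 10.50 in FC.

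Of 24 germ cell identity genes, 3 were higher, Mael, Ddx4 and Nanog (12.5%, against 0.224% of all genes). Nanog, a pluripotency factor, had 10.65 in M and 11.73 in MC, with 11.34 in F and 11.38 in FC. Dppa5a and Dppa3, bright genes of early germ cells, differed by 0.07 and 0.11. Of 19 genes of male germ cell differentiation, Mov10l1 (7.70 and 8.93), a piRNA helicase, was higher and Dusp9 (8.86 and 7.60), a MAP kinase phosphatase, lower. Each is 5.26% of that list, against 0.224% higher and 0.475% lower over all genes. Among 44 MYC-regulated growth genes, none reached 2-fold in either direction, but 41 lay below 0, with a median of -0.41 that became -0.276 after quantile normalization. All 44 had a mean signal of at least 6, where genes outside the small RNA classes also lay mostly below 0, with medians from -0.09 to -0.12. Between FC and F the list had a median of -0.475, with 5 genes at least 2-fold lower (156 of all 30738 genes). Nop16, a nucleolar protein, had 12.25 and 11.36, and Cad, which opens pyrimidine synthesis, had 10.64 and 9.86, whereas Ldha, lactate dehydrogenase, had 8.01 and 8.55. Genes of immediate early response had a median of 0.135 with 0 of 34 at 2-fold, beside 8 of 34 higher in FC than in F (168 of all 30738 genes).

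**Figure D4:**
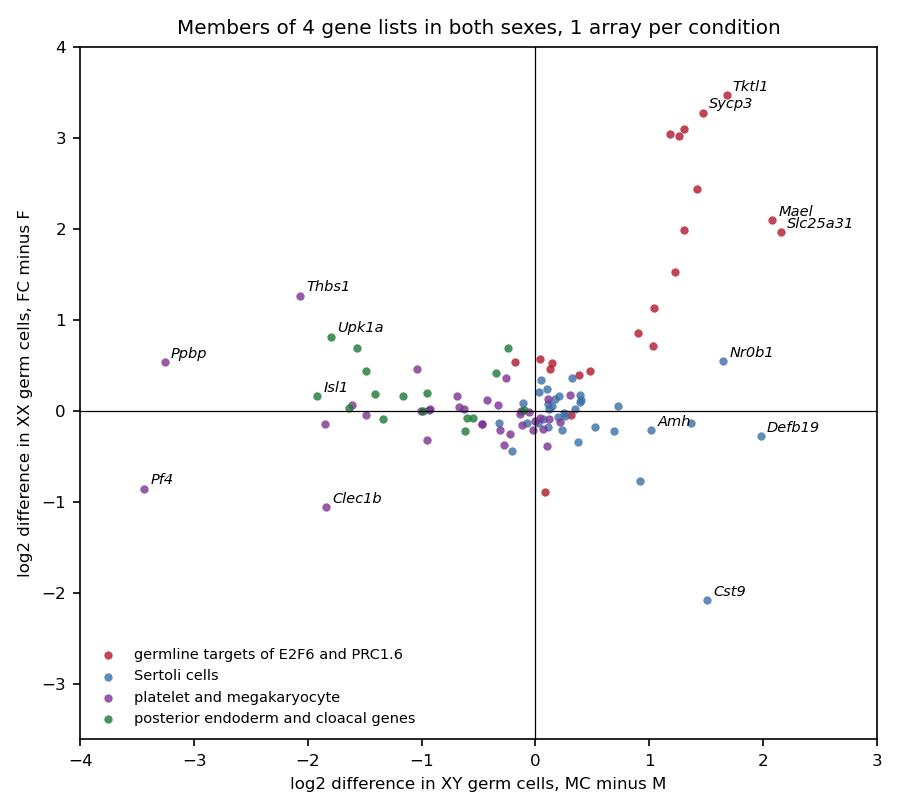
Log2 differences of the members of 4 gene lists in XY germ cells (MC minus M, x axis) and in XX germ cells (FC minus F, y axis), a point per gene, 1 array per condition. Most germline genes lie to the upper right, Pf4 and Ppbp lie at -3.44 and -3.26 on the x axis, and Cst9 lies at 1.51 and -2.07.

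Promoters of the higher genes were searched for 3 motifs, because MAX binds the E-box CACGTG and PRC1.6 subunits bind E2F and T-box sequences. RefSeq windows of 300 bases on GRCm38.p6, from 250 bases before to 50 after the start, were matched to 18284 named genes. CACGTG, which reads the same on both strands, was present in 11 of the 44 matched promoters of higher genes (25%), in 6 of 45 of lower genes (13.3%) and in 7.98% of all. The 11 were all among the 18 promoters of genes also at least 2-fold higher in FC, and 0 of the 26 other promoters held it, a split that rests on the F array, so that the promoters of Gabrp, Cst9, Krt5 and Nanog did not. The E2F letters TCCCGC, or GCGGGA on the other strand, were in 15 of 44 (34.1%), against 24.8% of all and 17.8% of lower genes, with 9 of the 18 shared with FC (50%) and 6 of the 26 others (23.1%). The T-box letters AGGTGTGA, or TCACACCT, were in 1 of 44, against 1.20% of all. A match is a description of the letters and not a binding site. The windows of the higher genes shared with FC had a median of 18.5 CG dinucleotides and the others of 5.5, against 12 over all.

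The windows of 3 genes, chosen for holding an E-box and for their large differences, are shown with E-box and E2F letters in capitals. Gabrp, Ccnb3, H2bc1 and Krt5, with differences of 3.08, 1.92, 1.86 and 1.86, have no E-box in their windows and are not shown. The E-box lies 93 bases before the start of Slc25a31 and 223 before that of Mael, and 165 and 95 bases before that of Tdrd9, which has no E2F match.
Slc25a31, chr3:40708621-40708920, plus strand: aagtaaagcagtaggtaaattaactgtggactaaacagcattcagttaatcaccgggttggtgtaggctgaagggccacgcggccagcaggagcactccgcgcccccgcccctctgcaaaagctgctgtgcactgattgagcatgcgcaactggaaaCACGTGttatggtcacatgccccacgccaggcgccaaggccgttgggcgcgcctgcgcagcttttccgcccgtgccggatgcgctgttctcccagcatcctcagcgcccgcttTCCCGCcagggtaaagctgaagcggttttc
Mael, chr1:166238695-166238994, minus strand: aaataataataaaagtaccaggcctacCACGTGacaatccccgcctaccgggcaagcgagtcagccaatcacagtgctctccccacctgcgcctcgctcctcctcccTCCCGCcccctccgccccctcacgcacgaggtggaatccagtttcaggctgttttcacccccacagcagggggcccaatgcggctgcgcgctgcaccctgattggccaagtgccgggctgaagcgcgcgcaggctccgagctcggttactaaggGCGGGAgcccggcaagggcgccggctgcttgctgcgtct
Tdrd9, chr12:111971309-111971608, plus strand: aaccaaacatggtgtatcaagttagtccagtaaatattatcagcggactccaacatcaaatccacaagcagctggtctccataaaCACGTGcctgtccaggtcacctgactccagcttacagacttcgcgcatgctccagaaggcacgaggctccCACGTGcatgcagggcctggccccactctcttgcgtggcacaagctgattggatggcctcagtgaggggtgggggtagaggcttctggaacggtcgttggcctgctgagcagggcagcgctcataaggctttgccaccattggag

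The small RNA classes supplied 73 of the 146 lower calls. The other 73 include short RNAs outside these classes, such as Rmrp and Rny3, so the even split depends on how the classes were drawn. Total RNA was labelled, and which form of a short RNA the probes read was not examined. The class of 914 small nuclear RNA genes had 42 with MC at least 2-fold lower and 1 higher, that is 4.60% lower against 0.475% of all genes, and the median difference was -0.14. The count depended on scaling, with 25 after quantile normalization, 24 after cyclic loess and 108 after median centring. The difference went with signal: the median was 0.08 for the 329 genes with a mean signal below 4, -0.54 for the 112 from 6 to 8, -0.79 for the 101 from 8 to 10 and -0.96 for the 74 at 10 or above. Genes outside the small RNA classes had medians of 0.05, -0.09, -0.12 and -0.11 at the same signals.

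Small nuclear RNAs build the spliceosome, and the mouse genome holds many copies of the U6 gene, most of them pseudogenes. In the RefSeq annotation, 33 of the 42 lower genes spanned exactly 107 bases, the span of the U6 gene Rnu6. The 367 genes of that span had a median of -0.51, against 0.02 for the 547 of any other. With a mean signal of at least 6, the 202 genes of this span had a median of -0.85 and 199 lay below 0, and the 85 others had a median of -0.39 and 73 below 0. The clusters are not independent: 48 genes of the class shared the 4 values of Rnu6 exactly (10.63 in M, 9.67 in MC, 9.68 in F and 9.67 in FC), and the 42 lower genes had 37 sets of values. A second cluster of Rnu6 went the other way, with 8.73 in M and 9.66 in MC, so that the 2 clusters of this gene disagree.

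**Figure D5:**
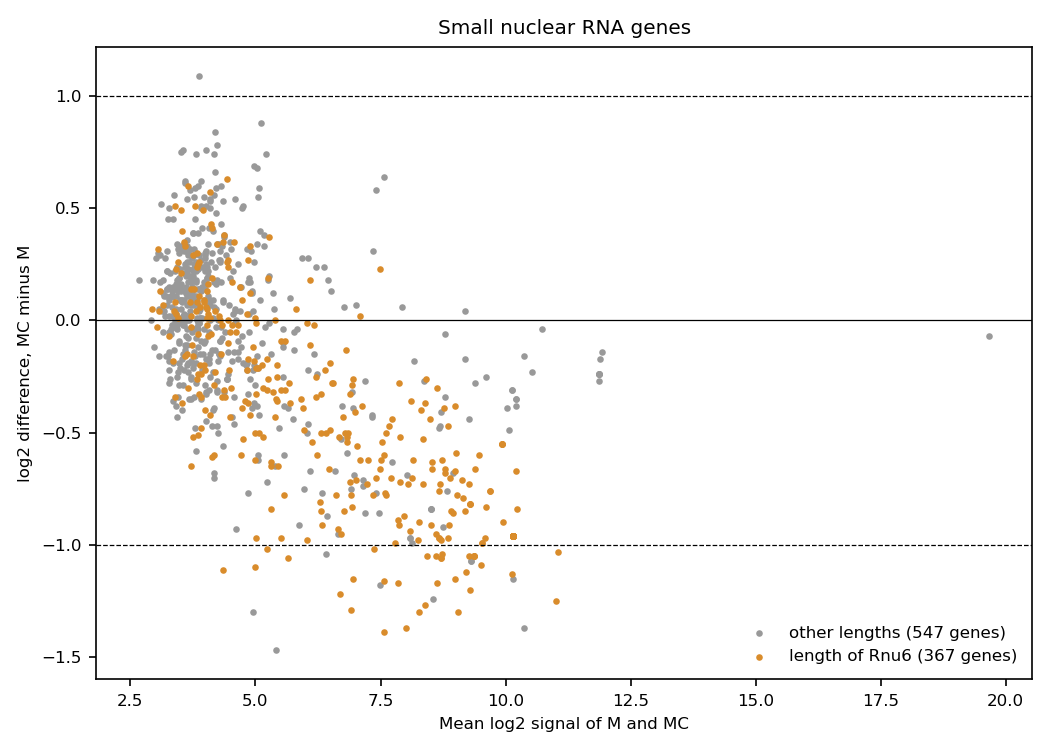
Log2 difference MC minus M (y axis) of 914 small nuclear RNA genes against the mean log2 signal of M and MC (x axis), with the genes of the span of Rnu6 in orange and dashed lines at 2-fold. Points below a signal of 5 scatter about 0, and of the 202 orange genes with a signal of at least 6, 199 lie below 0.

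Other short transcripts made by RNA polymerase III, in a list written after the values were seen, were lower in part. Rmrp, the RNA of an endoribonuclease, had 6.70 in M and 5.41 in MC, with 5.75 in F and 5.49 in FC. Rny3, a Y RNA, had 10.63 and 9.61, a difference of -1.02 that became -0.89 after quantile normalization, beside -0.93 between FC and F. Rpph1, the RNA of ribonuclease P, had 10.96 and 10.12, and the signal recognition particle RNA Rn7s1 had 10.74 and 10.29. Rn7sk, which holds back transcription elongation, differed by -0.07 at a signal near the top of the scale. Of the 11 genes in this list, 2 were at least 2-fold lower (18.2%, against 0.475% of all genes), with a median of -0.45. The 8 spliceosomal RNAs of RNA polymerase II had a similar median of -0.35, with none at 2-fold. The 5 U3 genes, whose RNA guides ribosomal RNA processing, had a median of -0.84 with none at 2-fold. Rnu3b1, Rnu3b2 and Rnu3b3 shared the same 4 values, so this median rests on a repeated set of values, and Rnu3a differed by -0.39.

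Small nucleolar RNAs guide the chemical modification of ribosomal and spliceosomal RNA and are mostly cut from introns. Of 45 C/D genes, 6 were at least 2-fold lower and 2 higher (all genes 0.475% and 0.224%), with a median of -0.27. Of 18 H/ACA genes, 4 were lower and 0 higher, with a median of -0.11. Both classes were also lower in XX cells. Between FC and F, 12 of the C/D genes (median -0.57) and 4 of the H/ACA genes (median -0.23) were at least 2-fold lower. In either class 0 were higher, and over all 30738 genes 156 were lower and 168 higher. Snora69 had 9.54 in M, 7.61 in MC, 7.92 in F and 7.91 in FC, so that M alone was high. Snora73b, with 11.81 in M, 10.37 in MC, 12.31 in F and 10.87 in FC, and Snora68, with 9.50, 7.86, 10.01 and 8.43, were lower with CreERT2 in both sexes. Snord45b differed by -1.85, Snord49b by -1.83 and Snord92 by -1.58, beside -1.20, -0.85 and -1.49 between FC and F. The higher pair was Snord71 (7.51 and 8.68) and Snord73a (3.54 and 5.36), which were lower in FC than in F, by -0.86 and -1.35. The 893 other snoRNA genes had 9 lower (1.01%), 3 higher (0.336%) and a median of 0.12, shares nearer to those of all genes, and Gm24336 (8.72 in M, 6.32 in MC) was the lowest of them. None of 80 ribosomal RNA genes reached 2-fold, and their median was -0.215.

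MicroRNAs pair with messenger RNAs through a seed at bases 2 to 8. Of 926 microRNA genes, 12 were at least 2-fold lower in MC (1.30%) and 7 higher (0.756%), against 0.475% and 0.224% of all genes, with a median of 0.07. Mature sequences were matched for 17 of these 19, and their 25 mature forms had 25 different seeds. The forms of 4 lower genes and of Mir10b, whose values in all 4 arrays follow, are shown with the seed in capitals, as RefSeq gives them on GRCm38.p6.
mmu-miR-5123, chr4:40850057-40850080, minus strand: uGUAGAUCcauaugccauggugug
mmu-miR-677-5p, chr10:128085291-128085312, plus strand: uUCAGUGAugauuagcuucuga
mmu-miR-677-3p, chr10:128085335-128085360, plus strand: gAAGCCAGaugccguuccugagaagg
mmu-miR-135b-3p, chr1:132198142-132198163, plus strand: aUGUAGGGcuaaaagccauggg
mmu-miR-342-5p, chr12:108658638-108658659, plus strand: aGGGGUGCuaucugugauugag
mmu-miR-342-3p, chr12:108658680-108658702, plus strand: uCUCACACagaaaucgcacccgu
mmu-miR-10b-5p, chr2:74726074-74726096, plus strand: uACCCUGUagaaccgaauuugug
mmu-miR-10b-3p, chr2:74726114-74726135, plus strand: cAGAUUCGauucuaggggaaua

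Mir135b had 5.36 in M, 3.35 in MC, 3.07 in F and 2.98 in FC, Mir677 had 9.28, 7.16, 7.45 and 7.60, and Mir342 had 7.93, 6.22, 6.54 and 6.52. In all 3, M alone was high. Mir5123 had 9.38 in M, 7.11 in MC, 4.40 in F and 7.91 in FC, so that it was lower with CreERT2 in XY and higher in XX cells. Mir6240 had 16.44 and 15.18, Mir7067 had 12.05 and 10.43, and Mir3089 had 5.51 and 3.60. Mir378c had 6.41 and 4.82 in the cluster used, and the mean of its 2 clusters gave a difference of only -0.64. Of the higher genes, Mir10b, which lies within a Hox cluster, had 3.58 in M, 5.02 in MC, 3.99 in F and 5.01 in FC, so that it was higher with CreERT2 in both sexes. Mir145a, a microRNA of smooth muscle, had 4.25 in M, 5.69 in MC, 4.36 in F and 4.40 in FC.

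Of 14 histone genes listed, 2 were at least 2-fold lower, 1 was higher and the median was -0.11 (14.3% lower, against 0.475% of all genes). The lower ones were the linker histone genes H1f2 (8.33 in M, 6.95 in MC) and H1f1 (5.69 and 4.55), and the higher one was H2bc1. In a wider list of 32 clustered histone genes, written after the values were seen, 24 lay below 0, with a median of -0.21. Several lower genes belonged to none of the lists. Tasor2, which is related to a subunit of the HUSH silencing complex, had 9.66 and 8.30 in XY and 9.90 and 8.56 in XX cells. Rpp38, a protein subunit of ribonuclease P, had 10.62 and 9.37, and Lsm7, a protein that binds U6 RNA, had 16.28 and 14.97, beside -0.94 and -0.89 in XX cells. Tuba4a, an alpha tubulin, had 7.85 and 6.59, beside 7.28 in F and 8.88 in FC. By chromosome, chromosome 3 held 8 higher genes among its 1435 (0.557%), the X 10 among 1866 (0.536%), chromosome 2 10 among 2735 (0.366%) and the Y 1 among 72, against 0.224% of all genes, while chromosomes 9 and 17 held 0. The 8 of chromosome 3 include Gstm2, Gstm4 and Gstm7, whose sequences are alike. Chromosome 3 also held 10 lower genes (0.697%, against 0.475% of all).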

How the data were processed

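Germ cells of E12.5 gonads were measured on 4 arrays, 1 per condition. The authors' deposited values are log2 signals, 1 for each of 65956 transcript clusters. Per the Methods, background was subtracted and robust multiarray analysis was run in R, while Transcriptome Analysis Console stands in the sample notes with no version, so the software is not settled here. The array named in the Methods holds probe sets, whereas the deposited identifiers are transcript clusters, so the array type is not settled either. Where robust multiarray analysis scales all arrays to like distributions, a change shared by most genes would be hidden.

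Clusters were named from the platform annotation, and 385 symbols were updated to RefSeq names of GRCm38.p6. A further 1522 clusters with several genes and 33142 not in the annotation were left unnamed. The annotation build is not given in the sources used here. Gene spans and biotypes come from RefSeq.

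Differences are MC minus M, with no test, and 2-fold was the call, with no filter on dim genes. Named genes are Max, the 20 largest differences in each direction among genes of at least median signal (4.525), members of lists and small RNA classes (up to 6 at 2-fold in each direction and 3 of highest signal below it) and defining markers. Further members named as examples were chosen after their values were seen. The comparison, the 30 lists of the plan and the rules were chosen with earlier results of these data known, and 9 further lists were written after the values were seen. The counting was tested on simulated data. Alternatives were quantile normalization, median centring, cyclic loess, signal filters, averaging a gene's clusters, all clusters, other thresholds and protein-coding genes alone. Genes with the same values counted once and genes outside the small RNA classes were alternatives chosen after seeing the data. The tools were limma 3.58.1 in R 4.3.3, and numpy 2.4.6, pandas 2.3.3 and matplotlib 3.10.9 in Python 3.11.15.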

Additional observations from a re-analysis of the deposited data

Results flagged for a closer look

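Of the genes at 2-fold in XY germ cells, 6 were at 2-fold in the opposite direction in XX germ cells, with 1 array per condition, and none of these differences between sexes was tested. Mir5123 had a log2 difference of -2.27 between MC and M and 3.51 between FC and F. Thbs1, the thrombospondin gene, had -2.07 and 1.27. Tuba4a, an alpha tubulin gene, had -1.26 and 1.6. The pseudogene Gm21028 had 1.18 and -1.14. Cst9 had 1.51 and -2.07, and in XX cells the higher value was that of F, the array with Y-linked signal (Uba1y 9.69 in F, 5.52 in FC). Snord73a had 1.82 and -1.35, at signals of 3.54 in M and 5.36 in MC.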

How the results depend on the processing

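With 1 array per condition nothing can be left out in turn, depth in the sense of reads does not apply, and dim genes cannot be told from background here. No paired analysis was possible because each group has 1 array. The 69 higher genes became 39 at a signal of at least 6, 480 at 1.5-fold, 12 at 3-fold and 202 over every transcript cluster. The 146 lower genes became 233 after median centring, 825 at 1.5-fold, 26 at 3-fold, 55 among protein-coding genes, 506 over every cluster and 73 outside the small RNA classes. The 42 lower small nuclear RNA genes became 25 after quantile normalization, 24 after cyclic loess and 108 after median centring, where the 48 genes that share the values of Rnu6 at -0.96 passed 2-fold. At a signal of at least 6, the 9 lower platelet genes became 4 and the 5 higher Sertoli genes 2, since fewer genes are counted. Of 110 named genes at 2-fold, 6 were below it after quantile normalization, 7 after cyclic loess, 5 after median centring (Amh, Ddx4, Gstm4, Gstm7 and Tex11) and 2 with the mean of a gene's clusters (Mir378c and Mir669h), and 0 reversed. Of 48 medians, over lists, classes and all genes, 37 kept their sign in all 4 of these settings. Those of cytosolic ribosomal proteins (-0.10, and 0.014 after quantile normalization) and the mitotic cell cycle (-0.11 and 0.052) were among those that did not. The causes were not tested.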

Other observations

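Clusters with no single named gene hold further differences. Of 34664 such clusters, 132 were at least 2-fold higher in MC and 354 lower, with differences from -3.05 to 2.61. Among the 30738 named genes the counts were 69 (0.224%) and 146 (0.475%), and among all 65956 clusters 202 and 506. For 142 genes with several clusters of mean signal 6 or above, the differences of a gene's clusters spanned a median of 0.085, and 2 genes (1.41%) spanned 1 or more, Rnu6 (1.89) and Tmem181a (1.04), both named after their values were seen.

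Genes of mesonephric tubules and of mesothelium, in lists written after the values were seen, lay on opposite sides of 0. Pax8, a kidney lineage factor, had 7.41 in M and 8.48 in MC, and Pax2 had 8.06 and 8.83, with a median of 0.49 over 7 genes. Of 9 mesothelial genes, 8 lay below 0, with a median of -0.44, and Krt19 was at 2-fold. Krt8 and Krt18 differed by -0.47 and -0.21 in XY cells, beside 1.33 and 1.48 between FC and F.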
